A study of Mus musculus with 7 samples.

Results

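The 8 genes followed here, Gzma, Gzmb, Gzmk, Prf1, Nkg7, Ifng, Fasl and Klrg1, carry out or mark killing by lymphocytes, and were taken by name from the 32285 genes in the count matrices of 7 mouse liver libraries. Each library was a single-cell RNA sequencing (scRNA-seq) run in which every transcript carries a unique molecular identifier (UMI), so that a count is a count of molecules. The study describes ABC-Myc mice on a C57BL/6J background, which carry Alb-Cre+/wt and CAG-MYC+/wt: a STOP cassette in front of human MYC is removed by Cre under the albumin promoter, which is active in hepatocytes. The control mice were littermates that lacked one or both alleles, and the age of the mice was not given in the sources used here. The labels put all 7 libraries under 1 disease state and name no groups or replicates. In the study's text 4 of them are tumors (NEJ634, NEJ687, NEJ709, NEJ723) and 3 healthy livers are described, and the other 3 libraries are NEJ638, NEJ654 and NEJ677. Values are therefore given for each library, those of the 4 tumor-named and the 3 other libraries are set side by side, and no difference between libraries was tested. The labels describe single cells, while the design text of the series speaks of nuclei. A range in parentheses after a level or ratio is its exact 95% interval (from Poisson counts), which covers counting error only.

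Cytotoxic lymphocytes kill by releasing granules onto a target cell. Perforin, the product of Prf1, forms pores through which the granzymes, serine proteases stored in the same granules, reach the target's cytosol. Nkg7 encodes a membrane protein of these granules, Fasl encodes a ligand that triggers death through the receptor Fas, Ifng encodes the cytokine interferon gamma, and Klrg1 encodes an inhibitory receptor of late-stage NK and T cells. The liver is rich in NK cells, in the related type 1 innate lymphoid cells and in unconventional T cells.

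In the GRCm38 coordinates of GENCODE M21, Gzma lies on chromosome 13 from 113093825 to 113100981 and Gzmk on the same chromosome from 113171608 to 113225908, with 70.6 kb between them, both on the minus strand. Gzmb lies on chromosome 14 from 56258838 to 56262260 (minus), Fasl on chromosome 1 from 161780689 to 161788495 (minus) and Klrg1 on chromosome 6 from 122270596 to 122282882 (minus). Prf1 lies on chromosome 10 from 61297833 to 61304680 and Ifng on the same chromosome from 118441046 to 118445892, both on the plus strand. Nkg7 lies on chromosome 7 from 43437073 to 43438249 (plus). Counts are of whole protein-coding genes, and no exon or UTR was counted separately. The promoters of 4 of the genes, Gzma, Gzmb, Prf1 and Nkg7, are shown because they share 1 motif. They were read from RefSeq's sequence of GRCm38.p6, from 250 bases before the start of transcription to 50 after it. Capitals mark TGTGGT or its reverse complement ACCACA, the core recognised by RUNX factors.
Gzma (chr13:113100932-113101231, minus strand): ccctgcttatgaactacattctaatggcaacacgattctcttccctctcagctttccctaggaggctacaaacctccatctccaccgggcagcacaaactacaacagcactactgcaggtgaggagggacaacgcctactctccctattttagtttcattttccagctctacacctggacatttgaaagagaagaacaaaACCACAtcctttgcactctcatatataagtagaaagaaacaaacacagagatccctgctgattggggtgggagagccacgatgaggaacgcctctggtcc
Gzmb (chr14:56262285-56262584, minus strand): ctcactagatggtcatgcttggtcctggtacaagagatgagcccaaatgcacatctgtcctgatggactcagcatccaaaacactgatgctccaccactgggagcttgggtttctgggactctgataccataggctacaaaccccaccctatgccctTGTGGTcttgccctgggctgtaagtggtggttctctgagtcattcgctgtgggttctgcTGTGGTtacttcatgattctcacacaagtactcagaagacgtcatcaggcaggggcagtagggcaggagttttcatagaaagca
Prf1 (chr10:61297586-61297885, plus strand): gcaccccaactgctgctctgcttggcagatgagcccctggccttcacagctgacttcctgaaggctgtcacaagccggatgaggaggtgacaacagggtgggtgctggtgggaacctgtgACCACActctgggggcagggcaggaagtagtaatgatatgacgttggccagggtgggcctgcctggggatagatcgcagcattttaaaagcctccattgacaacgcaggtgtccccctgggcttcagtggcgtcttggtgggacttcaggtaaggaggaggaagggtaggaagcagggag
Nkg7 (chr7:43436888-43437187, plus strand): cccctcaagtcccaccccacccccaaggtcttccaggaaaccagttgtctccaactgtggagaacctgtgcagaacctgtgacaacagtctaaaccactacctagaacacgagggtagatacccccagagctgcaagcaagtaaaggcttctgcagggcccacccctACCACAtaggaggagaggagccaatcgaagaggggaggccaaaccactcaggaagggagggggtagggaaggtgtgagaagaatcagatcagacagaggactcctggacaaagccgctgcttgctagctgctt
Distances are from the RefSeq start of transcription, which is the GENCODE gene start in Gzma but another position in Gzmb, Prf1 and Nkg7. The capital letters stood 50 bases before the start in Gzma, 93 and 34 before it in Gzmb, 130 in Prf1 and 83 in Nkg7. They were in 4 of the 7 promoters of these genes that the table holds, against 16.8% of all 32851 promoters of the same length, and a match is a description of the letters. Klrg1 has no entry in that table. In all, 8 motifs were searched on both strands. The T-box core TCACAC was in Gzmb, Gzmk and Nkg7 (14.5% of all promoters), and its longer form TCACACCT in Nkg7 alone (1.28%), at an overlapping position. The AP-1 motif TGANTCA was in Gzmb (7.81%), the ETS motif CAGGAAGT in Prf1 and Fasl (3.33%), TATAAA in Ifng (13.6%) and the interferon-stimulated response element in Gzma (3.44%). TGACGTCA was in none of the 7 (1.79% of all promoters).

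Cells were set as T cells where they held at least 2 UMIs of Cd3d, Cd3e and Cd3g together, the chains that carry the signal of the T cell receptor. NK cells held none of these and at least 2 UMIs of Ncr1 and Klrb1c together, which encode NK receptors that type 1 innate lymphoid cells also carry. Other cells held 0 UMIs of all 5 genes, and the rest lay between the gates. Of 72545 cells, 2867 were T cells and 278 NK cells. T cells numbered 479 in NEJ634, 270 in NEJ687, 210 in NEJ709, 320 in NEJ723, 366 in NEJ638, 565 in NEJ654 and 657 in NEJ677. NK cells numbered 40 in NEJ687, 82 in NEJ723, 49 in NEJ654 and 86 in NEJ677, but only 16 in NEJ634, 2 in NEJ709 and 3 in NEJ638, and NK levels are compared in the first 4 alone. In these 4, Trac, a T cell receptor chain the gates did not use, was at 6.92 to 26.9 counts per 1000000 UMIs (CPM) in NK cells and at 248 to 399 CPM in T cells. Other receptor chains were closer: Trbc2 was at 75.2 to 256 CPM in NK cells and 661 to 1296 in T cells, Trbc1 at 173 to 412 and 349.6 to 571, and Trdc at 27.7 to 49.9 and 42.1 to 87.4. Clustering without the 8 genes put 89.4% to 99.5% of the T cells of NEJ687, NEJ723, NEJ638, NEJ654 and NEJ677 into 2 clusters of T or NK cells. The 2 libraries NEJ634 and NEJ709 stood apart, with 16.1% (77 cells) and 22.4% (47 cells), so T cell levels in these libraries are also given for the cells of those clusters. Total counts ranged from 40214395 UMIs in NEJ638 to 132485391 in NEJ634. Barcodes that also occurred as a cell in another library made up 1833 of the 72545 cells, 88 of the T cells and 6 of the NK cells.

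Gzma, which encodes the tryptase-like granzyme A, was the most abundant of the 8 transcripts in NK cells of each of the 4 libraries. Its level was 4608 CPM in NK cells of NEJ687 (4337 to 4892), 2346 in NEJ723, 8935 in NEJ654 (8454 to 9436) and 8224 in NEJ677. In T cells it was 884 CPM in NEJ634, 3626 in NEJ687 (3524 to 3730), 635 in NEJ709, 298 in NEJ723 (275 to 323), 1196 in NEJ638, 1453 in NEJ654 and 1171 in NEJ677. NK cells were therefore above T cells in all 4 libraries, by 1.27-fold in NEJ687 (1.19 to 1.36), 7.86-fold in NEJ723 (7.11 to 8.71), 6.15-fold in NEJ654 (5.75 to 6.58) and 7.03-fold in NEJ677 (6.64 to 7.43). The narrow gap in NEJ687 came with the highest T cell level of the 7 libraries. As the background, intervals of the level in NK and T cells were apart with NK cells higher in all 4 libraries for 62 of 7390 genes (0.839%), and with T cells higher for 44 genes (0.595%). B-like cells, which should lack the gene, held 0 to 10.7 CPM of Gzma. After each cell was thinned to 500 UMIs, 62.5% of NK cells in NEJ687, 56.1% in NEJ723, 87.8% in NEJ654 and 82.6% in NEJ677 held a Gzma UMI, against 4.29% (NEJ709; 10% when thinned to 1000 UMIs) to 35.2% (NEJ687) of T cells and at most 0.181% of B-like cells. Each thinned share is from 1 random draw. In T cells of the T or NK clusters of NEJ709, drawn separately, the share at 500 UMIs was 21.3%. Without thinning, the shares were 81.7% to 95.9% of NK cells, 15% to 47.4% of T cells and at most 0.992% of B-like cells. Median depths were 2775 to 4738 UMIs in these NK cells, 1779 to 6473 in T cells and 1281.5 to 3323 in B-like cells.

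**Figure D1:**
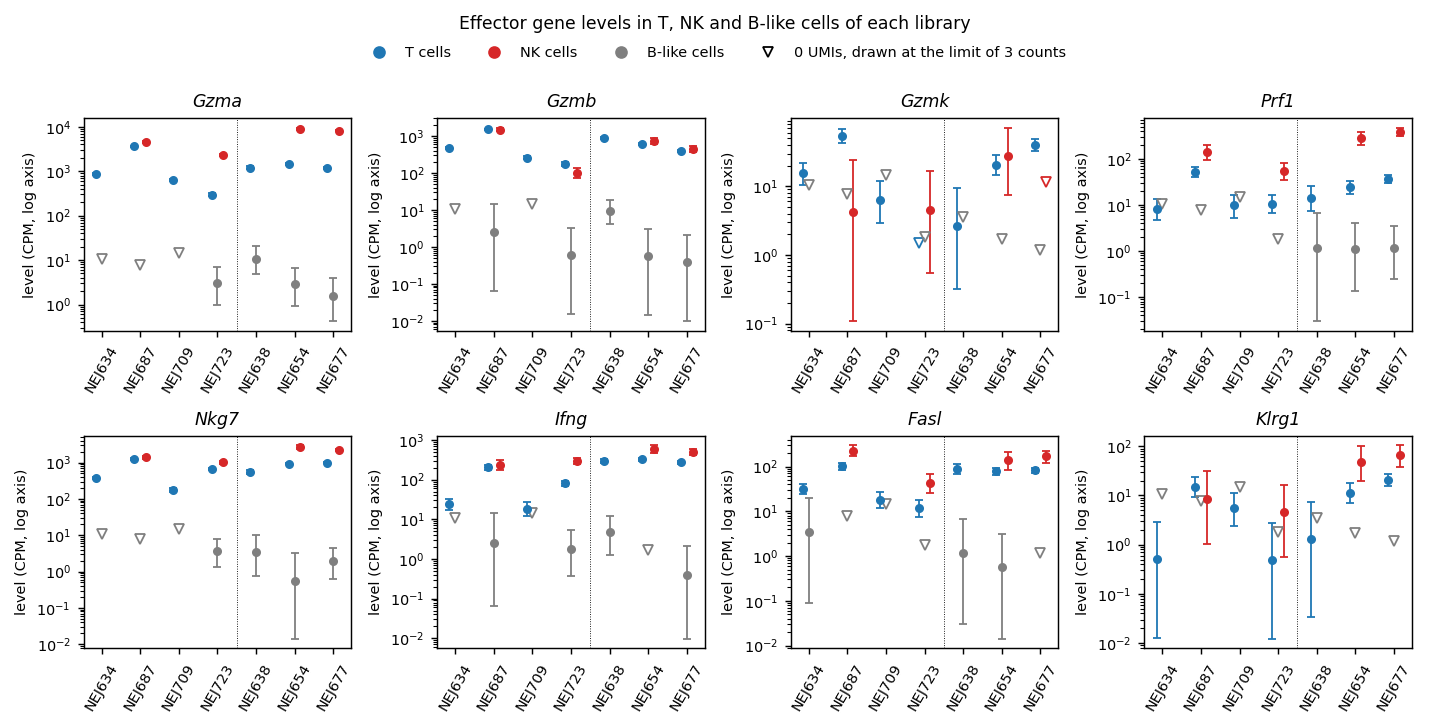
Level of each of the 8 genes in each library (x axis) in CPM on a log axis, for T cells, NK cells and B-like cells with at least 20 cells; bars are exact 95% Poisson intervals, open triangles mark 0 UMIs drawn at 3 counts, and the dotted line parts the 4 tumor-named libraries from the other 3. Gzma in NK cells lies at 2346 to 8935 CPM and in B-like cells at 10.7 CPM or less, and Ifng in T cells is lower in each library left of the line than in each to the right. Such a separation in T cells was seen in 7.80% of 7549 genes.

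Gzmb encodes granzyme B, which cleaves after aspartate and activates caspases. Its level in T cells was 486 CPM in NEJ634, 1523 in NEJ687 (1457 to 1591), 260.1 in NEJ709, 174 in NEJ723 (156 to 193), 883 in NEJ638, 600.5 in NEJ654 and 393 in NEJ677. NK cells held 1496 CPM in NEJ687, 100.3 in NEJ723, 734 in NEJ654 and 453 in NEJ677. Unlike Gzma, it was above T cells with intervals apart in 0 of the 4 libraries, and was higher in T cells in NEJ723, where the ratio of NK to T cells was 0.578 (0.412 to 0.792). The ratio was 0.982 in NEJ687 (0.874 to 1.10), 1.22 in NEJ654 (0.991 to 1.49) and 1.15 in NEJ677 (0.944 to 1.40). NK cells of NEJ723 also held 3750 CPM of Lyz2, a myeloid gene, against 15.3 to 111 CPM in NK cells of the other 3 libraries, and its part in the low NK levels of that library was not tested.

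Gzmk, the granzyme of early memory CD8 T cells, was rare, and was a T cell transcript where it could be placed. T cells held 15.4 CPM in NEJ634, 54.7 in NEJ687 (42.8 to 68.9), 6.29 in NEJ709, 2.63 in NEJ638, 20.6 in NEJ654 and 39.8 in NEJ677 (32.4 to 48.3). It was not detected in the 320 T cells of NEJ723, where 3 counts would have been 1.47 CPM. In NK cells there was 1 UMI in NEJ687 (4.29 CPM), there were 2 in NEJ723 (4.56 CPM) and 4 in NEJ654 (27.7 CPM), and 0 in NEJ677, where 3 counts would have been 11.5 CPM. T cells were above NK cells in NEJ687 and NEJ677, and the ratio of NK to T cells in NEJ687 was 0.0784 (0.00196 to 0.451). In NEJ654 the intervals overlapped.

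Prf1, the gene of perforin, set NK and T cells furthest apart in NEJ687, NEJ654 and NEJ677 among the members with a called difference and more than 3 UMIs in both. Its level in NK cells was 141 CPM in NEJ687, 54.7 in NEJ723, 284 in NEJ654 and 391 in NEJ677 (319 to 475). T cells held 8.19 CPM in NEJ634, 52.4 in NEJ687, 9.79 in NEJ709, 10.8 in NEJ723, 14.5 in NEJ638, 24.6 in NEJ654 and 37.0 in NEJ677. NK cells were above T cells by 2.70-fold in NEJ687 (1.73 to 4.14), 5.09-fold in NEJ723 (2.73 to 9.51), 11.6-fold in NEJ654 (7.34 to 18.1) and 10.6-fold in NEJ677 (7.91 to 14.1). Gzma and Prf1 were the 2 of the 8 genes that NK cells held above T cells in all 4 libraries.

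Nkg7, which encodes a granule membrane protein that takes part in granule release, was at 374 CPM in T cells of NEJ634, 1243 in NEJ687, 175 in NEJ709, 672 in NEJ723, 551 in NEJ638, 937 in NEJ654 and 999 in NEJ677. NK cells held 1397.5 CPM in NEJ687, 1014.5 in NEJ723, 2692 in NEJ654 and 2209.5 in NEJ677. The level was higher in NK cells by 1.51-fold in NEJ723 (1.35 to 1.68), 2.87-fold in NEJ654 (2.57 to 3.21) and 2.21-fold in NEJ677 (2.02 to 2.42), and the interval of NEJ687 held equality (1.12-fold, 0.995 to 1.27). After thinning to 500 UMIs, 27.5% of the T cells of NEJ723 held an Nkg7 UMI and 8.12% a Gzma UMI. Among its T cells in the clusters, thinned to 1000 UMIs, Nkg7 was held by 50.8% of those without and 63.9% of those with a Gzma UMI.

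Ifng, the gene of interferon gamma, was at 236 CPM in NK cells of NEJ687, 294 in NEJ723, 595 in NEJ654 and 506 in NEJ677. T cells held 24.1 CPM in NEJ634, 204 in NEJ687, 18.2 in NEJ709, 80.7 in NEJ723, 296 in NEJ638, 326 in NEJ654 and 273 in NEJ677. It was higher in NK cells by 3.65-fold in NEJ723 (2.87 to 4.62), 1.83-fold in NEJ654 (1.44 to 2.30) and 1.86-fold in NEJ677 (1.53 to 2.24), while the ratio in NEJ687 was 1.15 (0.847 to 1.55).

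Fasl, the ligand of the death receptor Fas, was at 227 CPM in NK cells of NEJ687, 43.3 in NEJ723, 138 in NEJ654 and 169 in NEJ677. In T cells it was 31.7 CPM in NEJ634, 100.3 in NEJ687, 18.2 in NEJ709, 11.7 in NEJ723, 89.6 in NEJ638, 78.3 in NEJ654 and 83.0 in NEJ677. Intervals were apart with NK cells higher in NEJ687 (2.27-fold, 1.62 to 3.14), NEJ723 (3.69-fold, 1.91 to 7.03) and NEJ677 (2.03-fold, 1.44 to 2.82). In NEJ654 the level in NK cells was 1.77-fold that in T cells. The interval of this ratio (1.05 to 2.84) left out equality, while the intervals of the 2 levels overlapped, so it was not called.

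Klrg1, the inhibitory receptor, had the lowest level of the 8 in T cells of each library except NEJ723, where Gzmk was at 0. T cells held 1 UMI each in NEJ634 (0.512 CPM), NEJ723 (0.489 CPM) and NEJ638 (1.32 CPM), 5.59 CPM in NEJ709, 15.2 in NEJ687, 11.4 in NEJ654 and 20.7 in NEJ677. NK cells held 48.4 CPM in NEJ654 and 65.2 in NEJ677, above T cells by 4.24-fold (1.51 to 10.4) and 3.16-fold (1.71 to 5.54). In NEJ687 and NEJ723 they held 2 UMIs each, at 8.57 and 4.56 CPM, and a difference from T cells was not detectable at this depth. Under 5 of 9 alternative settings Klrg1 was called in 1 library in place of 2.

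**Figure D2:**
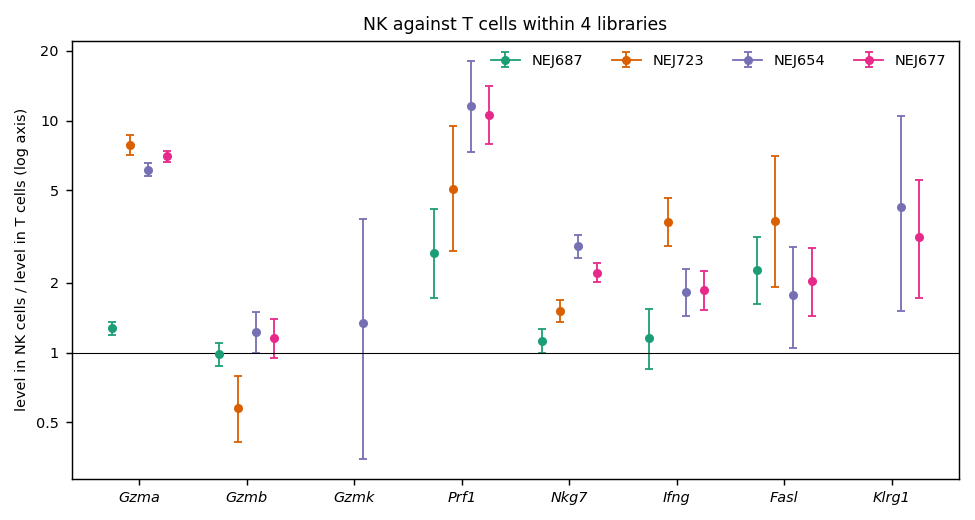
Level in NK cells divided by the level in T cells (y axis, log scale) for each gene in the 4 libraries with at least 20 cells of both kinds, with 95% intervals of the ratio; ratios with 3 UMIs or fewer in either pool are not drawn, and the horizontal line marks equal levels. Gzma and Prf1 lie above 1 in each library, and Gzmb between 0.578 and 1.22.

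Genes that work beside these 8 were taken from 10 fixed lists, and are counted where they reached 10 CPM in any pool of at least 20 T or NK cells, with the genes of the gates left out. Receptors of NK cells and their adaptors followed Prf1: 8 of 15 were higher in NK cells in all 4 libraries and 0 in T cells, against 0.839% and 0.595% of all genes. The median log2 ratio of NK to T cells over the 15 was 1.85, against 0.01 over all genes. Tyrobp and Fcer1g, among the 8, encode adaptors and not receptors. Other cells also held them, at up to 1239 and 1067 CPM. Klra4, which encodes a Ly49 receptor, was at 100.3 to 418 CPM in NK cells and 3.43 to 31.9 CPM in T cells of the 4 libraries. Of the other genes of the granule pathway, 3 of 12 were higher in NK cells in all 4 libraries. These were Ctsw, which encodes cathepsin W, and the serpins Serpinb9 and Serpinb6b, inhibitors of granzyme B and granzyme A. Serpinb9 was at 716 CPM in NK cells and 244 in T cells of NEJ687, 253 and 42.1 in NEJ723, 360 and 70.3 in NEJ654, and 433 and 71.7 in NEJ677. NK cells thus held more of the granzyme B inhibitor while Gzmb itself was called higher in none of the 4. Among the remaining cytokines and death ligands, Xcl1, which attracts cross-presenting dendritic cells, was the 1 of 6 higher in NK cells in all 4 libraries, at 388 to 742 CPM against 216 to 465 CPM in T cells.

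Of 13 transcription factors of effector lymphocytes, Eomes was higher in NK cells in all 4 libraries (81.5 to 184 CPM against 11.4 to 24.0) and Lef1, a factor of naive T cells, in T cells (68.9 to 210.4 CPM against 13.8 to 30.0). Tbx21, the factor T-bet that drives Ifng, was at 43.3 to 215 CPM in NK cells and 32.3 to 73.1 in T cells, and was called higher in NK cells in 1 library. In the list of naive and recirculating T cells, 2 of 6 genes, Ccr7 and Lef1, were higher in T cells in all 4 libraries, and Ccr7 was at 0 in the NK cells of each. T cell subset genes gave 4 of 8 higher in T cells (Cd8a, Cd8b1, Trac and Trbc2). Checkpoint receptors (0 of 5), genes of tissue-resident NK and type 1 innate lymphoid cells (0 of 7) and genes that respond to interferon gamma (0 of 8) had no member called in either direction in all 4 libraries. Of 5 receptors and ligands of the 8 genes, Serpinb9 alone was called.

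In NEJ634 and NEJ709 the T cells of the T or NK clusters held more of most of these genes than all T cells of the gate. Gzma was at 1697 CPM in these cells of NEJ634 and 2182 in NEJ709, against 884 and 635 in all T cells. Gzmb was at 1158 and 855 CPM (486 and 260.1 in all T cells), and Nkg7 at 661 and 466 (374 and 175). Prf1 was at 23.1 and 21.4 CPM (8.19 and 9.79), Fasl at 81.8 and 59.0 (31.7 and 18.2) and Gzmk at 21 and 21.4 (15.4 and 6.29). Klrg1 was at 0 in NEJ634 and 18.8 CPM in NEJ709 (0.512 and 5.59). In the other 5 libraries these levels differed from those of all T cells by less than 1.5 times.

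The tumor-named and the other libraries overlapped in T cells for 7 of the 8 genes, in all T cells and in those of the clusters. Gzma ranged from 298 to 3626 CPM in the 4 tumor-named libraries and from 1171 to 1453 in the other 3, and Gzmb from 174 to 1523 and from 393 to 883. For both, NEJ687 was the highest of the 7 and NEJ723 the lowest. Ifng was the 1 that did not overlap, at 18.2 to 204 CPM in the tumor-named libraries and 273 to 326 in the others. In T cells of the T or NK clusters it was 60.8 CPM in NEJ634 (40.7 to 87.4), 232 in NEJ687 (205 to 262), 53.6 in NEJ709 (32.7 to 82.8) and 96.9 in NEJ723 (82.6 to 113), against 302 in NEJ638 (264 to 344), 371 in NEJ654 (340 to 404) and 303 in NEJ677 (281 to 326). Such a separation with the tumor-named libraries lower was seen in 7.80% of 7549 genes in all T cells and in 4.33% of 7156 genes in those clusters, and the opposite in 4.28% and 3.40%. A count of 1 of 8 is near this background and is no result about the 8 genes, and the values of Ifng that follow are a description. T cells outside the clusters held 5.51 to 17.4 CPM of Ifng in the tumor-named libraries and 18.3 and 102 in the 2 others with at least 20 such cells, where 14.9% of 8038 genes were lower and 6.72% higher. The separation was not complete in every measure: after thinning to 500 UMIs, 0.835% to 10.7% of T cells held an Ifng UMI in the tumor-named libraries and 9.28% to 15% in the others, and B-like cells held one in at most 0.198%. Without thinning these T cell shares were 5.43% to 27.0% and 21.3% to 30.1%. In T cells of the clusters the thinned shares were 0% to 9.27% and 11% to 15.8%, with no overlap, and the unthinned shares overlapped (18.2% to 29.0% and 21.4% to 32.1%). The 9.27%, of NEJ687, had an exact 95% interval of 5.97% to 13.6%, which reaches past the 11%.

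Several values moved with Ifng. The Cd3 genes themselves were at 1399 to 1837 CPM in T cells of the clusters in the tumor-named libraries and at 1961 to 2673 in the others. Alb, a hepatocyte gene, was at 28.8 to 136 CPM there and at 382 to 878 in the others, and the median depth of these cells was 3875 to 7299 UMIs against 1777 to 3191. The part of these values in the difference of Ifng was not tested. From the fixed lists, 2 of 6 cytokines and death ligands were also lower in each tumor-named library in T cells of the clusters. These were Ccl3 (2.68 to 76.9 CPM against 81.8 to 196) and Ccl4 (70.2 to 633 CPM against 829 to 1120), chemokines released by activated cytotoxic cells. Of 13 transcription factors 3 were lower, Tbx21 (34.8 to 70.8 CPM against 78.1 to 92.7), Tcf7 and Lef1, and of 6 genes of naive and recirculating T cells 4 were lower, Il7r, S1pr1, Lef1 and Tcf7. Il7r and Cxcr6, a receptor of liver-resident lymphocytes, were the 2 of 7 genes of tissue-resident cells (Cxcr6 at 10.7 to 48.9 CPM against 80.2 to 162). Fas, the receptor of Fasl, was the 1 of 5 receptors and ligands that was lower (5.36 to 12.6 CPM against 18.6 to 26.9), and Socs1 the 1 of 8 genes that respond to interferon gamma (37.5 to 61.2 against 64.5 to 78.9). Higher in each tumor-named library were 1 of 15 NK receptors and adaptors, the Ly49 receptor Klra7 (106 to 153 CPM against 26.6 to 87.3), and 1 of 5 checkpoint receptors, Tigit (5.95 to 16.6 against 3.92 to 5.50). No gene of the granule pathway or of the T cell subsets was apart in either direction. These counts stand beside the 4.33% of all genes that were lower and the 3.40% that were higher in such cells. The ranges compare levels alone, without counting intervals. Ccl3, Fas and Tigit were at a few CPM in some of these pools, which is few UMIs, so their separation may lie within counting error. The mean of Tigit over these pools was below the 10 CPM that the genes behind those shares had to reach.

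In NK cells only 2 tumor-named (NEJ687, NEJ723) and 2 other libraries (NEJ654, NEJ677) could be set side by side. Gzma was at 2346 and 4608 CPM in the former and 8224 and 8935 in the latter, and Prf1, Nkg7, Ifng and Klrg1 were likewise lower in both tumor-named libraries. Gzmb, Gzmk and Fasl overlapped. The median depth of NK cells was 4705.5 and 4738 UMIs in the tumor-named and 2808 and 2775 in the other libraries, and the Lyz2 level of NK cells was 38.6 CPM in NEJ687, 3750 in NEJ723, 111 in NEJ654 and 15.3 in NEJ677. The part of these values was not tested. With 2 libraries against 2, 24.6% of 7195 genes had both tumor-named libraries lower and 13.3% higher. Over all cells of a library, Ifng was at 2.59 to 6.74 CPM in the tumor-named libraries and 17.4 to 38.3 in the others, and Fasl at 1.0 to 4.19 and 6.27 to 10.7, where 36.5% of 13535 genes were lower and 9.46% higher. T cells made up 1.51% (NEJ709) to 3.48% (NEJ687) of the cells of the tumor-named libraries and 5.45% (NEJ638) to 8.85% (NEJ677) of the others. T cells of the T or NK clusters made up 0.454% in NEJ634, 3.20% in NEJ687, 0.338% in NEJ709 and 2.39% in NEJ723, and 5.42% to 8.43% in the others. With a gate of 1 UMI the shares overlapped. Cells that passed this T gate were 1622 of 16963 in NEJ634, 376 of 7755 in NEJ687, 1590 of 13914 in NEJ709 and 520 of 12452 in NEJ723. In the others they were 515 of 6716 in NEJ638, 763 of 7322 in NEJ654 and 788 of 7423 in NEJ677, and the highest share was in NEJ709. A cell can also hold 1 Cd3 UMI from free RNA, which held Cd3 transcripts in NEJ634 and NEJ709. The part of free RNA in these counts was not tested. The levels over all cells do not by themselves tell fewer T cells from less RNA per T cell. The shares and the levels within T cells are given above, and the part of each was not tested.

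T cells were divided by Cd8a and Cd8b1 (CD8, with no Cd4 UMI), by Cd4 (with no CD8 UMI), and by Trdc, the constant chain of the gamma delta receptor, whose cells may fall in another subset as well. Cells with no UMI of any of these made up the remainder, and all values are from cells in the T or NK clusters. Gzmk in CD8 cells was at 38.7 CPM in NEJ634, 136 in NEJ687, 28.7 in NEJ709, 8.93 in NEJ638, 63.6 in NEJ654 and 81.2 in NEJ677, while the remainder held at most 3.92 CPM (NEJ687). A Gzmk UMI was held by 5 of 35, 25 of 91, 2 of 21, 1 of 91, 18 of 155 and 52 of 272 of these CD8 cells, so that the value of NEJ638 is that of 1 cell. In NEJ709 no other subset reached 20 cells, and 1 of its 3 CD4 cells held a Gzmk UMI. In NEJ723 it was at 0 in 169 CD8 cells. CD4 cells reached 20 cells in NEJ654 (62) and NEJ677 (73), where they were low in Gzma, at 257 and 162 CPM against 1010 and 1275 in CD8 cells. These CD4 values came from few cells, since 1 of 62 and 4 of 73 held any Gzma UMI, against 33 of 155 and 78 of 272 CD8 cells. CD4 cells held 5.71 CPM of Gzmk in NEJ654 (1 cell) and 19.8 in NEJ677 (3 cells). Prf1 in CD4 cells was 1 UMI in NEJ654 (5.71 CPM) and 0 in NEJ677. For Ifng the order was the opposite, at 439 CPM in CD4 and 253 in CD8 cells of NEJ654, and 447 and 190.1 in NEJ677, with intervals apart in both. Gzmb was highest in cells with Trdc: 1942 CPM in NEJ687, 623 in NEJ723, 1548 in NEJ638, 1415 in NEJ654 and 1161 in NEJ677, against 1811, 135, 353, 494 and 381 CPM in CD8 cells. In NEJ687 the intervals of these 2 subsets overlapped.

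**Figure D3:**
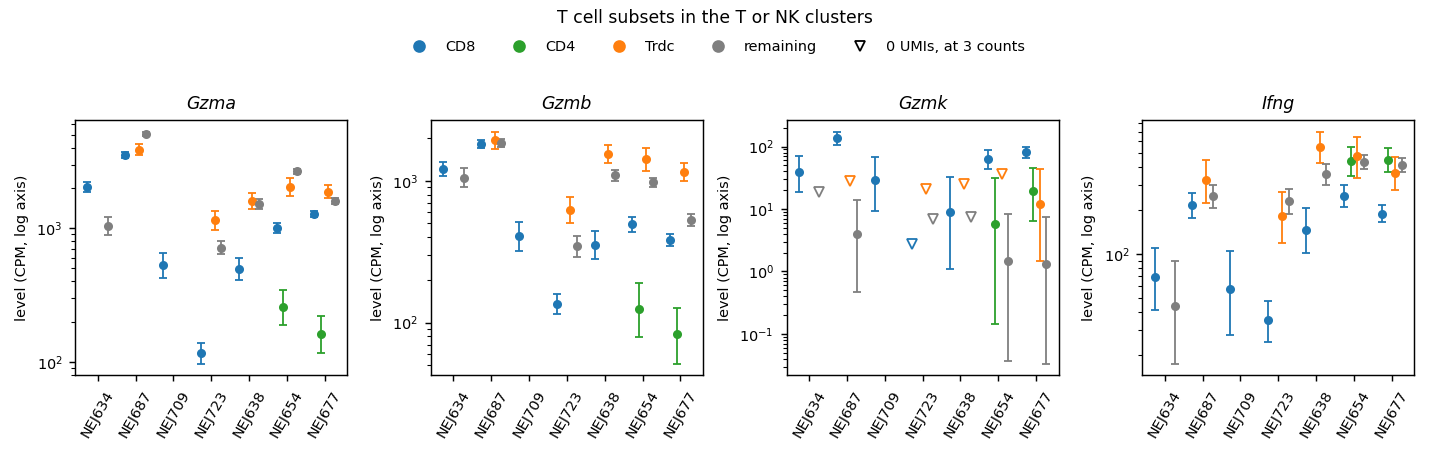
Level of Gzma, Gzmb, Gzmk and Ifng in CPM (log axis) in subsets of T cells in the T or NK clusters of each library (x axis), for subsets of at least 20 cells; bars are exact 95% Poisson intervals and open triangles mark 0 UMIs at 3 counts. CD8 cells hold 8.93 to 136 CPM of Gzmk in 6 libraries, and CD4 cells hold the least Gzma and Gzmb in NEJ654 and NEJ677.

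The separation of Ifng was not seen in each subset. In CD8 cells it was 69.7 CPM in NEJ634, 218 in NEJ687, 57.4 in NEJ709 and 34.8 in NEJ723, against 147 in NEJ638, 253 in NEJ654 and 190.1 in NEJ677, so that NEJ687 lay among the others. In the remainder it was 43.6 CPM in NEJ634, 251 in NEJ687 and 231 in NEJ723, against 355 in NEJ638, 433 in NEJ654 and 410 in NEJ677, with no overlap among pools of at least 20 cells. The share of all genes apart in these pools was not computed, so this is a description. CD8 cells made up 35 of 77 T cells of the clusters in NEJ634, 91 of 248 in NEJ687 and 21 of 47 in NEJ709. They were 169 of 297 in NEJ723, 91 of 364 in NEJ638, 155 of 505 in NEJ654 and 272 of 626 in NEJ677. The part of this make-up in the Ifng levels was not tested.

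T cells with a UMI of an NK gene held more Gzma than those without one in the 6 libraries that had at least 20 such cells. This division, by at least 1 UMI of Ncr1 or Klrb1c, was chosen after values had been seen and is a description. T cells with such a UMI in the T or NK clusters held 3125 CPM of Gzma in NEJ634, 7157 in NEJ687, 1242 in NEJ723, 4026 in NEJ638, 6032 in NEJ654 and 3685 in NEJ677, each from at least 20 cells. Those without one held 1125, 2788, 71.8, 870, 668 and 771 CPM in the same order. Gzmb followed, at 757 to 2467 CPM against 38.2 to 1438, whereas Gzmk was at 0 to 11.9 CPM in the cells with an NK gene and 0 to 82.8 in those without. Ifng in cells with an NK gene ranged from 29.3 to 667 CPM, and was lower than in cells without one in NEJ634 (29.3 against 73.4) and NEJ687 (194 against 248).

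Gzma and Gzmb were found in the same T cells. After thinning to 1000 UMIs, 76.2% of the cells in the clusters with a Gzma UMI held a Gzmb UMI in NEJ634, 74.0% in NEJ687, 75.0% in NEJ709 (6 of 8 cells), 38.9% in NEJ723, 83.3% in NEJ638, 83.9% in NEJ654 and 54.6% in NEJ677. Among cells without Gzma the shares were 25.0%, 30.8%, 7.69%, 6.92%, 19.6%, 13.5% and 11.8%. For Ifng the shares in cells with and without Gzma were 4.76% and 7.14% in NEJ634, 14.0% and 16.4% in NEJ687, 0% and 2.56% in NEJ709, 30.6% and 8.46% in NEJ723, 21.4% and 16.7% in NEJ638, 27.6% and 22.5% in NEJ654, and 30.6% and 16.2% in NEJ677. The share with Gzmb was higher in cells with Gzma in all 7 libraries, and the share with Ifng in 4 of the 7.

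Across the 68 pools of library and cell class with at least 20 cells, the gene whose level was most like that of Gzma was Il2rb, a chain of the receptor for interleukins that sustain NK cells (Pearson r of 0.982 over log2 of CPM plus 10, among 8580 genes). Xcl1 and Skap1 came next for both Gzma and Nkg7, and Il2rb led for Nkg7 as well (r of 0.953). Gzmb was most like Trbc1 (0.978), a chain of the T cell receptor, and Gzmk most like Cd247 (0.810). The genes first in rank for Prf1 (Ncr1 and Klrb1c) and for Klrg1 (Ncr1) set the NK pools, so their likeness is fixed in part by the gates and is not read. Next came Klra4 for Prf1 (0.953) and Klra8 for Klrg1 (0.872), which are receptors of the same cells. Ifng was most like Sh2d1a (0.983) and Tbx21 (0.980), and Fasl most like Tbx21 (0.971). Pools of 1 library share depth and free RNA, and these values describe a pattern across cell classes. Gzmk and Klrg1 had means of 2.63 and 2.68 CPM over the pools, below the 10 CPM asked of the compared genes. Their r values therefore rest on few UMIs.

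Where the transcripts lay differed between libraries. In NEJ687, NEJ723, NEJ638, NEJ654 and NEJ677 the cells of the T or NK clusters held 94.4% to 98.3% of the Gzma UMIs of all cells, but 22.1% in NEJ634 and 23.5% in NEJ709. Other cells outside these clusters held 40.8% of the Gzma UMIs in NEJ634 and 60.6% in NEJ709, against 0.738% to 4.12% in the other 5. The level in those cells was 38.2 CPM in NEJ634 and 56.6 in NEJ709, below that of the barcodes ranked 45000 to 90000 by UMI count, which stand for free RNA (90.5 and 62.9 CPM). In NEJ634, 71066 barcodes held over 500 UMIs, so part of its free RNA set lay above the minimum used for cells. That set was not shown to be without cells. For Nkg7 the share outside was high in all 4 tumor-named libraries, at 64.6% in NEJ634, 39.5% in NEJ687, 75.7% in NEJ709 and 32.6% in NEJ723, against 1.22% to 4.70% in the other 3. T cells outside the clusters held 621 CPM of Gzma and 752 CPM of the Cd3 genes in NEJ634, and 88.9 and 346 CPM in NEJ709, against 1697 and 1766 CPM, and 2182 and 1466 CPM, in T cells inside them. Free RNA in NEJ634 held 46.6 CPM of the Cd3 genes and in NEJ709 50.3. The gate asks for at least 2 Cd3 UMIs in each T cell, so a Cd3 level above free RNA is fixed by the gate and is not read.

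**Figure D4:**
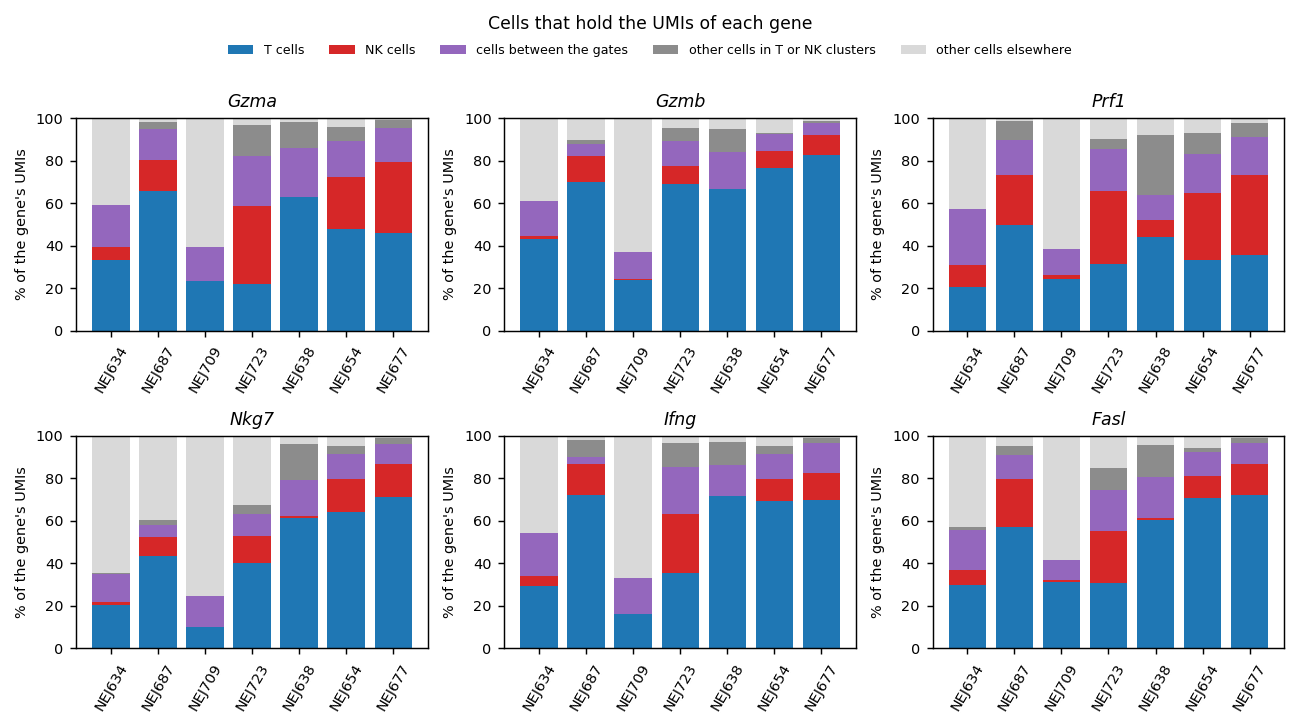
Share of the UMIs of each of 6 genes (y axis, percent of the gene's UMIs over all cells) held by T cells, NK cells, cells between the gates, and other cells inside and outside the T or NK clusters, as stacked bars by library (x axis). For Gzma, other cells outside the clusters hold 40.8% in NEJ634 and 60.6% in NEJ709 and at most 4.12% elsewhere, and for Nkg7 32.6% or more in the 4 tumor-named libraries.

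A cluster led by myeloid genes held most of the Nkg7 UMIs of other cells outside the T or NK clusters in NEJ687 and NEJ723, but not in NEJ634 and NEJ709. This cluster of 1304 cells, led by the basophil genes Prss34 and Mcpt8 and the granulocyte precursor genes Ctsg, Prtn3, Mpo and Elane, kept no single class name. It held 845 of 2331 such UMIs in NEJ634, 1274 of 1488 in NEJ687, 216 of 1896 in NEJ709 and 897 of 1121 in NEJ723. In NEJ709, 1616 of them lay in an unnamed cluster with mitochondrial and erythroid genes among its leading genes, at 51.3 CPM, where free RNA held 41.6 CPM. In the first cluster, cells with no UMI of the gate genes held 338 CPM of Nkg7 in NEJ634 (315 to 361), 166 in NEJ687, 210.1 in NEJ709, 131 in NEJ723, 360.4 in NEJ654 and 220 in NEJ677, and 0 UMIs in 23 cells of NEJ638. Neutrophil-like cells held 24.5 to 52.1 CPM in the tumor-named libraries and 0 to 32.2 in the others, and B-like cells at most 3.59 CPM. The cluster was then divided, after its values had been seen, into cells with at least 2 UMIs of Mcpt8 and Prss34 and none of Elane, Mpo, Prtn3 and Ctsg, and cells of the converse. Cells with precursor genes alone held Nkg7 at 428 CPM in NEJ634, 343 in NEJ687, 304 in NEJ709, 236 in NEJ723, 2248 in NEJ654 (20 UMIs in 7 cells) and 964 in NEJ677 (8 UMIs in 7 cells). Cells with basophil genes alone held 1 UMI of Nkg7 in NEJ723 (39.1 CPM) and 0 in the other libraries that had any. At 3 counts these pools would have shown 635 CPM in NEJ634, 263 in NEJ687, 195 in NEJ638 and 378 in NEJ677. A lower level than in the precursor cells was therefore not detectable in NEJ634. In NEJ687, NEJ723 and NEJ677 the exact intervals of the basophil-gene and precursor-gene cells overlapped, so a lower level was not called there either. In NEJ638 there were no precursor cells to compare.

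Gzmb was held by the cells with basophil genes in 3 libraries. Cells with basophil genes alone held 6399 CPM of Gzmb in NEJ687 (5015 to 8045, 73 UMIs in 4 cells), 1432 in NEJ638 (898 to 2168, 22 UMIs in 9 cells) and 503 in NEJ677 (137 to 1289, 4 UMIs in 3 cells). They held 0 in 7 cells of NEJ723, where 3 counts would have been 117 CPM, and 0 in the single cell of NEJ634. Cells with precursor genes alone held 0 to 18.6 CPM of Gzmb. Gzma was at 0 in the basophil-gene cells of each library that had any. These pools are of 1 to 9 cells each, and the levels are values of those cells.

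**Figure D5:**
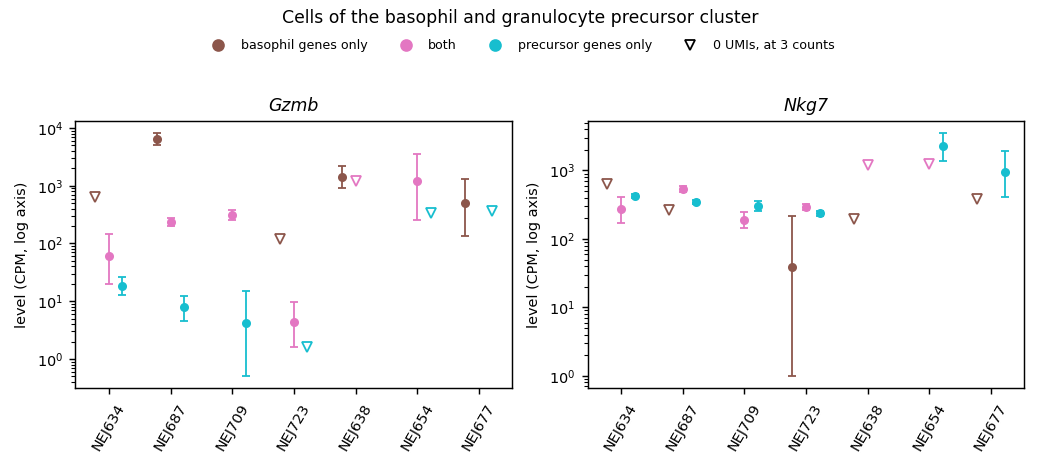
Level of Gzmb and Nkg7 in CPM (log axis) in cells of the cluster led by basophil and granulocyte precursor genes, by library (x axis), for cells with basophil genes alone, with both and with precursor genes alone, with any number of cells; bars are exact 95% Poisson intervals and open triangles mark 0 UMIs at 3 counts. Gzmb reaches 6399 CPM in basophil-gene cells of NEJ687, and Nkg7 lies at 236 to 2248 CPM in precursor-gene cells.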

How the data were processed

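The data were 7 droplet scRNA-seq libraries of mouse liver. The authors deposited matrices of raw UMI counts per gene and barcode with every barcode listed. Per the file headers they were written by Cell Ranger 4, while the submitters' processing notes name Cell Ranger 6.0. The genome build was not given in the sources used here.

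Cells were called with the ambient profile of barcodes ranked 45000 to 90000: those with more UMIs than the 99th percentile among the 3000 largest, divided by 10, and others from 500 UMIs whose profile differed in 10000 Monte Carlo draws at an adjusted p of 0.01, at most 20000 tested per library (reached in 3). This left 81380 cells above 500 UMIs with a mitochondrial share of 20% or less. Scrublet's own threshold marked 7 of them, so the 8835 with the highest scores were removed at 0.8% per 1000 cells. Leiden clustering (scanpy; 2000 variable genes, 40 components, 15 neighbours, resolution 1) left out the 8 genes and gave 43 clusters, 20 of them unnamed, from 133 markers of 17 classes. To be named, a cluster had to reach 1.5 in the mean log2 fold of a class's markers, lead the next class by 1 and hold 3 markers up 2-fold; 1 cluster whose leading genes went against its name was left unnamed.

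Levels are summed UMIs per 1000000 UMIs of the pool. The named genes were the 8 genes, the 3 genes most like each, and the genes of 10 lists, of which those called in all 4 libraries or furthest apart are named. Some genes are not reported here. The genes and lists were chosen with earlier results of these data known. Labels gave 0 groups, so no p-value between libraries was computed. The Poisson calls and the calling of cells were tested on simulated data. For the Poisson calls the simulated counts were themselves drawn from Poisson distributions. They held no spread between cells, so they cannot show how the calls behave where cells differ. The tools were scanpy 1.11.5, numba 0.67.0, matplotlib 3.10.9, pandas 2.3.3, scipy 1.17.1 and numpy 2.4.6 under Python 3.11.15.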

Additional observations from a re-analysis of the deposited data

Results flagged for a closer look

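T cell transcripts also stood in barcodes that were not called as cells and enter no level above. In NEJ634, 289 of 46818 such barcodes over 500 UMIs held at least 2 UMIs of the Cd3 genes (0.617%), and these held 214 UMIs of Gzma (620.5 CPM, where free RNA held 90.5 CPM) and 92 of Gzmb. In NEJ709, 23 of 10240 did (0.225%), with 4 UMIs of Gzma (81.7 CPM, where free RNA held 62.9 CPM). Both are libraries in which most T cells lay outside the T or NK clusters. These are the libraries with more than 3 such barcodes. Free RNA held 46.6 and 50.3 CPM of the Cd3 genes, and an excess of such barcodes over those that free RNA would give was not tested. The limit on cell calling bears on these counts. In NEJ634 the 20000 largest of 68463 candidate barcodes were tested, so most of its 46818 uncalled barcodes were left out untested. Some of those also entered the free RNA set of that library. In NEJ709, 20000 of 22814 candidates were tested.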

How the results depend on the processing

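In all, 10 alternatives were computed. Of them 9 give counts of libraries, and those for Gzma, Prf1, Nkg7 and Fasl stayed within 1.5 times. With gates of 1 UMI, however, 7 libraries were compared in place of 4, and Gzma and Prf1 were each higher in NK cells in 5 of the 7, not in all. The remaining one, thinning to 1000 in place of 500 UMIs, bears on shares of cells and moved 37 of 88 of them (26 by over 1.5 times). The count of libraries with Gzmb higher in NK cells, and that with Gzmb higher in T cells, became 2 and 2 with gates of 1 UMI, where all 7 libraries had both kinds of cell, and 2 libraries had it higher in T cells with gates of 3 UMIs. Klrg1 was higher in NK cells in 1 library with gates of 3 UMIs, in cells of the T or NK clusters alone, with every barcode over 500 UMIs, with no doublet removal and without shared barcodes. With the mean over cells, which has no interval, each library counts one way: Gzmb was higher in 2 and lower in 2, Gzmk was higher in NK cells in 2, and Ifng and Klrg1 were each higher in T cells in 1. Gates of 1 UMI moved 46 of 88 levels beyond their intervals (17 by over 1.5 times), and the cluster requirement moved 34 (15 by over 1.5 times). Gates of 3 UMIs moved 24 (10 by over 1.5 times) and a limit of 10% mitochondrial UMIs moved 11 (9 by over 1.5 times). That limit left 70 of the 210 T cells of NEJ709 and raised all 8 levels there by over 1.5 times. Gates of 1 UMI moved all 14 shares of T and NK cells among all cells, 9 of them by over 1.5 times. The causes were not tested. No paired analysis was possible because the labels give no groups. Gzmk and Klrg1 rest on few UMIs, and NK cells of NEJ634, NEJ709 and NEJ638 were too few for a comparison.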
